A study of Homo sapiens with 32 samples.

Results

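The collagen genes were taken as the protein-coding genes whose symbol is COL, a type number, A and a chain number, in the RefSeq annotation of build GRCh38. This rule found 44 genes among 19974, and it used no measured value. They were divided into 11 fibrillar chains, 6 basement membrane chains, 10 FACIT chains (fibril-associated collagens with interrupted triple helices) and 17 others. Of the 44 genes, 22 carried no H3K27me3 island in any of 16 libraries, 4 were covered over less than 5% of their length on average, and 18 were covered over 5% or more. The genes of collagens I, III and VII and the widespread basement membrane chains COL4A1 and COL4A2 were among the 22 without islands, whereas COL9A1, COL14A1 and COL19A1, all FACIT chains, were covered almost from end to end.

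Collagens are extracellular matrix proteins made of chains that wind into triple helices. Fibrillar collagens form the load-bearing fibrils of skin, bone, tendon and cartilage, FACIT collagens sit on the surface of such fibrils, and collagen IV forms the sheet-like network of basement membranes. The remaining chains form beaded filaments, anchoring fibrils, short-chain networks or membrane-spanning proteins. H3K27me3, trimethylation of histone H3 at lysine 27, is written by EZH2 in Polycomb repressive complex 2 and marks genes held silent, often because they belong to another lineage or stage of development.

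The cells were MDA-MB-231, an established human triple-negative breast cancer line of mesenchymal appearance. The 4 groups, each with 4 H3K27me3 libraries, were compared after 24 h: untreated cells (control), cells given an EZH2 inhibitor (EPZ, EP7 in the sample titles), cells given a p38 MAP kinase inhibitor (P38i), and cells given both (combo). The libraries were made by ChIPmentation, in which Tn5 transposase adds sequencing adapters to immunoprecipitated chromatin, and 16 IgG libraries labelled as input were not analysed. No label tells if the 4 libraries of a group came from separate cultures, so the p-values measure only the spread between these libraries, which may be technical.

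Each library came as a list of islands, that is, regions called as enriched, with a start and an end but no score or read count. Read depth is therefore unknown, and all values below are the percent of a gene, with 2.5 kb added on each side, that lay under islands. The lists held 53290 to 85194 islands that covered 474 to 674 Mb, with a median island width of 3.4 to 7.4 kb. The covered length was 474 to 587 Mb in EPZ and 526 to 615 Mb in combo, against 484 to 669 Mb in control and 533 to 674 Mb in P38i. In bulk chromatin, fewer cells with the mark and less of it per cell cannot be told apart.

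Promoter sequences are printed for 5 collagen genes named in the results, with the stretch shared by COL4A1 and COL4A2. Each is the 250 bases before the annotated gene start, 5′ to 3′ on the gene's own strand, from RefSeq on GRCh38.p14. Capitals mark CG, which reads the same on both strands, and 96.9% of 15812 promoters of this length held it at least once. The first pair comes from the 2 neighbouring FACIT genes whose starts were almost always under islands.
COL9A1, chr6:70303085-70303334, minus strand: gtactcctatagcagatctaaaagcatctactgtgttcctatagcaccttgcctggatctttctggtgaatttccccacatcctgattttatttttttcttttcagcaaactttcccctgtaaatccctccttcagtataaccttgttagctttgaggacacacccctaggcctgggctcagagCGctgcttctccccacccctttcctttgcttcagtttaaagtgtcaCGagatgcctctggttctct
COL19A1, chr6:69866306-69866555, plus strand: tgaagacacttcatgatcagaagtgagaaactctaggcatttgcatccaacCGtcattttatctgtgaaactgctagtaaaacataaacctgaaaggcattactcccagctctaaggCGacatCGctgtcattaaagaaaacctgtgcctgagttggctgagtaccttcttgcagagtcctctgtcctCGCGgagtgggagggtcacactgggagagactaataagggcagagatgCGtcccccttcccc
The COL9A1 promoter held 2 CG, a number reached or passed by 91.9% of all promoters, and the COL19A1 promoter held 6, reached by 76.9%. The next pair belongs to genes whose coverage over the gene fell with the EZH2 inhibitor, though not past the threshold at the start. COL24A1 fell as well and is not printed, its window ending 212 bases from the annotated gene start.
COL11A1, chr1:103108523-103108772, minus strand: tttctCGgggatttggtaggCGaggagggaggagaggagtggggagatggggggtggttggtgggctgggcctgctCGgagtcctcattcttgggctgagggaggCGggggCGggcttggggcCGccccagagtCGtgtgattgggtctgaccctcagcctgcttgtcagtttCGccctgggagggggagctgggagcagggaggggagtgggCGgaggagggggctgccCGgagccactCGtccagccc
COL25A1, chr4:109302659-109302908, minus strand: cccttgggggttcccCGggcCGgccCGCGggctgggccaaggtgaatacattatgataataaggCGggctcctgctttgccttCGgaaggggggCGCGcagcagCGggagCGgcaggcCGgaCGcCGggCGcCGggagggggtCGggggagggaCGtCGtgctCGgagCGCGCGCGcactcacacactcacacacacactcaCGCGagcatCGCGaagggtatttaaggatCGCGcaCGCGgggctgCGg
COL11A1 had 11 CG, reached by 66.2% of promoters, and COL25A1 had 32, reached by 12.2%. The next promoter, of COL23A1, is shown because its gene was covered while its start was not.
COL23A1, chr5:178590394-178590643, minus strand: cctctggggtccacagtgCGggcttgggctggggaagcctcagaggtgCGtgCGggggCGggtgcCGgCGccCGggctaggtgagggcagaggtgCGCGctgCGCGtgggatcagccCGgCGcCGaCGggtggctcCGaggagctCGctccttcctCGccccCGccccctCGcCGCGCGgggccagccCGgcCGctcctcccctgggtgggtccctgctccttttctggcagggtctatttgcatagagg
It held 25 CG, reached by 28.2% of promoters. The last sequence is the whole stretch of 126 bases between the starts of COL4A1 and COL4A2, which are transcribed away from each other and had no island in any library.
COL4A1 and COL4A2, chr13:110307158-110307283, plus strand: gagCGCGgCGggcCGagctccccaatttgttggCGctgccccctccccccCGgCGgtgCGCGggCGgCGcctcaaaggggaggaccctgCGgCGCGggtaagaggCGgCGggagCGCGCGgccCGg
This stretch held 20 CG. Among the 32 collagen genes with a promoter in the table, 10 or more CG were found in 8 of 13 (61.5%) with a mean coverage of 5% or more and in 14 of 19 (73.7%) below that. Over all genes the shares were 42.1% and 75.6%. Some of the collagen windows counted end away from the annotated gene start, from 212 bases in COL24A1 to 7997 in COL28A1. The CG content of these windows is a description, and its relation to the islands was not tested.

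More of the collagen genes carried islands than genes in general, and they are also longer genes. A mean coverage of 5% or more was reached by 18 of 44 collagen genes (40.9%) and by 22.3% of all genes, and a mean of 50% or more by 7 of 44 (15.9%) and by 10.6%. No island at all was found on 22 of 44 (50%) collagen genes and on 68.0% of all genes. The median length was 145 kb for the collagen genes and 24.2 kb for all genes. Among genes of 200 kb or more, 9 of 14 collagen genes (64.3%) and 44.9% of all genes reached 5%. Among those of 100 to 200 kb these shares were 4 of 12 (33.3%) and 26.9%, between 50 and 100 kb 2 of 6 (33.3%) and 21.5%, and under 50 kb 3 of 12 (25%) and 19.5%. COL5A2, at 409 kb, had a mean of 0.564% and COL4A5, at 258 kb, had no island, while COL9A1, at 88.0 kb, had 96.8%.

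**Figure D1:**
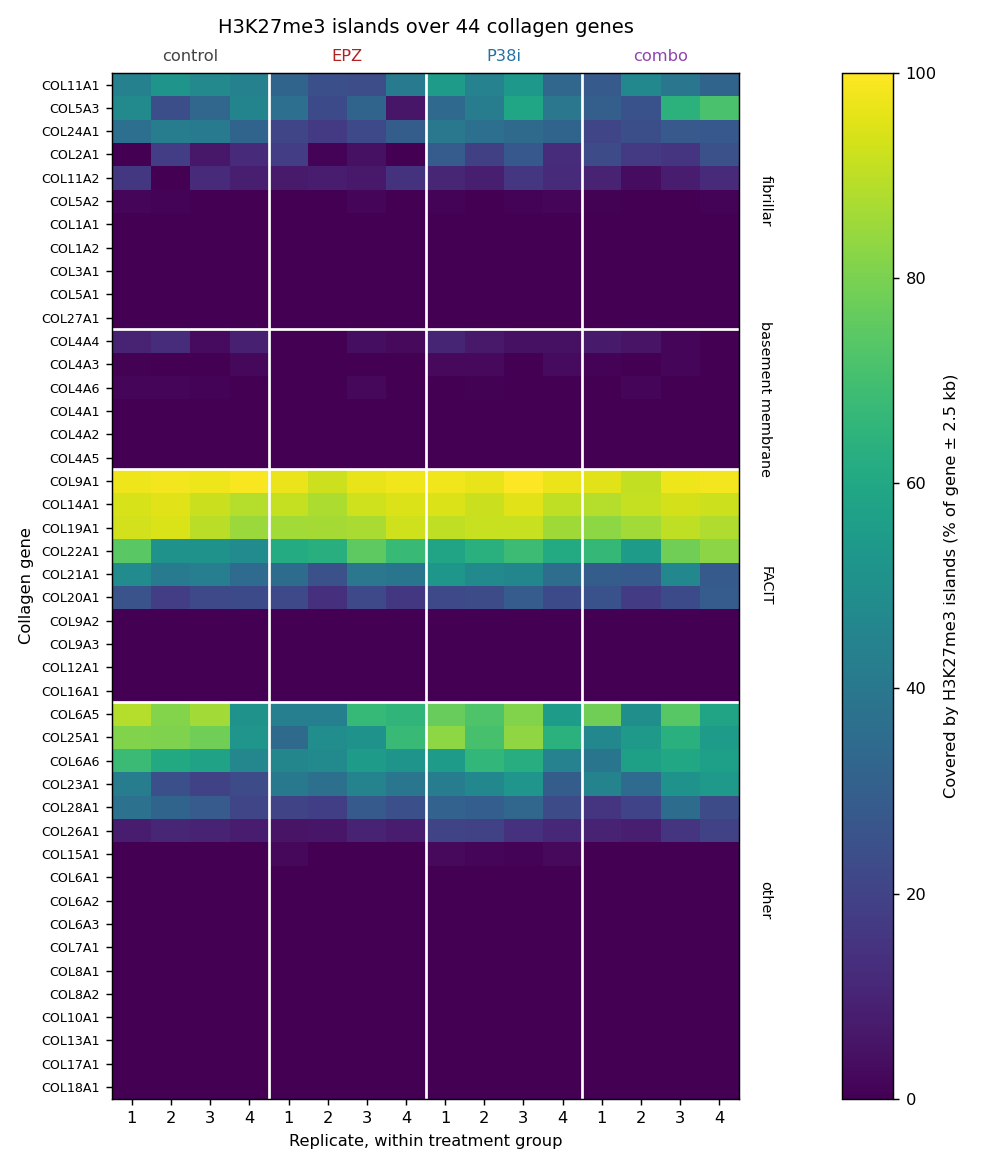
Percent of each of the 44 collagen genes, with 2.5 kb on each side, that lay under H3K27me3 islands in each of the 16 libraries. Rows are genes grouped by class and columns are the 4 libraries of each treatment group. The upper FACIT rows COL9A1, COL14A1 and COL19A1 were above 80% in every library, and 22 rows were at 0 throughout.

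**Figure D2:**
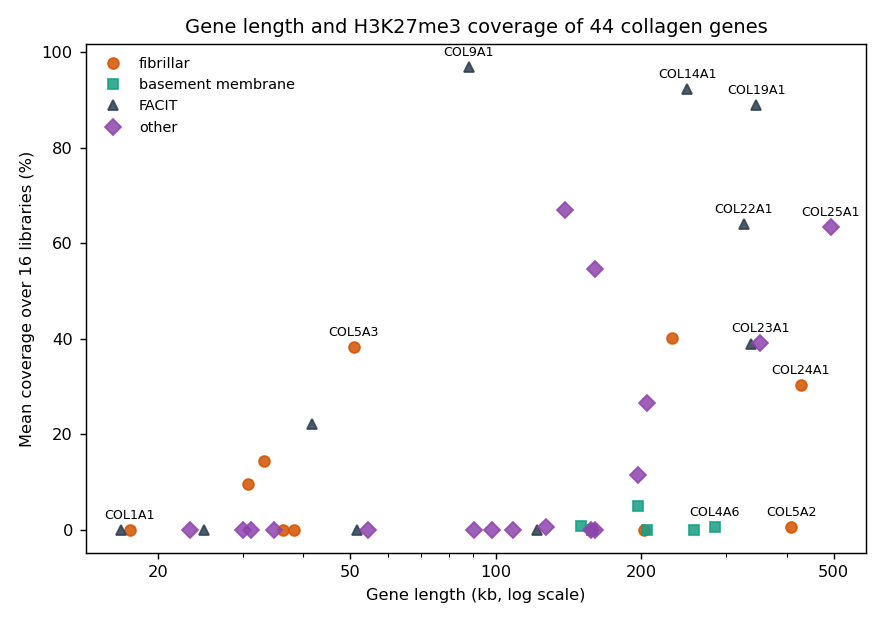
Gene length on a log axis against mean coverage over the 16 libraries, with 1 point per collagen gene and 1 symbol per class. Genes of 200 kb or more run from 0 to 92.2%, and COL9A1, at 88.0 kb, has the highest mean, 96.8%.

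Of the 11 fibrillar chains, 5 had no island (COL1A1, COL1A2, COL3A1, COL5A1 and COL27A1), COL5A2 averaged 0.564%, and 5 lay between 9.53% and 40.1%. No fibrillar chain reached 50%. COL1A1 and COL1A2, which encode collagen I, the main protein of bone, tendon and skin, were at 0 in all 16 libraries, and so was COL3A1, its partner in elastic tissue. In the 50 kb on either side of COL1A1, 0.613% was covered on average, and around COL3A1 none was. COL5A1 and COL27A1 were also free of islands, but 27.9% and 28.2% of the 50 kb beside them was covered. The covered fibrillar genes included COL2A1, COL11A1 and COL11A2 of cartilage, with means of 14.3%, 40.1% and 9.53%. Cartilage collagens were not covered as a group: of the collagen IX genes, COL9A1 was covered and COL9A2 and COL9A3 had no island.

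COL11A1 (chr1:102876473-103108522, minus strand), a chain of the thin fibrils of cartilage that many carcinoma stromas also make, had the highest fibrillar mean, 40.1%. Its values were 44.1%, 51.6%, 47.2% and 44% in control, 32.1%, 24.4%, 23.5% and 41.6% in EPZ, 55.4%, 44.3%, 53.4% and 33.1% in P38i, and 28.4%, 46.8%, 39.3% and 32.1% in combo. All 4 EPZ libraries were below all 4 control libraries, while combo overlapped every other group.

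COL24A1 (chr1:85729233-86156984, minus strand), a fibrillar chain found in developing bone and cornea, had a mean of 30.4%. It was covered over 36.5%, 42.3%, 41.7% and 32.2% in control and over 39.9%, 36.6%, 34.6% and 32.4% in P38i. With the EZH2 inhibitor it was covered over 20.7%, 16.9%, 22.2% and 29.4% in EPZ and over 20.8%, 24.1%, 28.1% and 27.5% in combo. The 8 libraries with the EZH2 inhibitor were all below the 8 without it.

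COL5A3, a chain of the collagen V that helps to set fibril diameter, and COL2A1, the main collagen of cartilage, were, with COL11A1, the fibrillar genes among the 6 collagen genes with the widest range of group means. COL5A3 had 47.8%, 24.2%, 33.1% and 44.9% in control, 36.7%, 22.5%, 32.1% and 6.08% in EPZ, 34.2%, 42.1%, 58.9% and 39.6% in P38i, and 30.3%, 25.4%, 64.2% and 71.4% in combo. COL2A1 had 0.293%, 18.1%, 6.57% and 11.8% in control, 18.1%, 0.816%, 4.48% and 0% in EPZ, 29.1%, 19.1%, 27.5% and 12.8% in P38i, and 22.8%, 17.0%, 15.5% and 24.9% in combo. COL2A1 averaged 21.1% ± 5.87 (SD, n = 8) with the p38 inhibitor and 7.51% ± 7.61 without it, with overlap. COL11A2 averaged 9.53%, with islands in 15 libraries and only in the first 40% of the gene.

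The basement membrane chains carried little H3K27me3. COL4A1, COL4A2 and COL4A5 had no island, COL4A6 averaged 0.489% with islands in 6 libraries, COL4A3 averaged 0.840% with islands in 7, and COL4A4 averaged 5.03% with islands in 13. These genes stand in 3 pairs that start beside each other and are read in opposite directions. The gaps were 126 bases for COL4A1 and COL4A2, 135 bases for COL4A4 and COL4A3, and 379 bases for COL4A6 and COL4A5. No gap was covered in any library. COL4A1 and COL4A2 encode the chains of the network found in almost all basement membranes, and 0% of the 50 kb on either side of each was covered as well. COL4A3 and COL4A4 belong to the basement membranes of kidney glomerulus, lung, inner ear and eye. Both had islands within 2.5 kb of their starts in the same 6 libraries. Their start windows overlap, and these were the same islands, lying on the COL4A4 side. They entered the values of both genes, which are therefore not independent. COL4A4 overlaps RHBDD1, so an island there cannot be assigned to 1 of the 2 genes.

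FACIT genes held the highest values of the family. Of the 10, 6 had a mean of 5% or more and 4 of 50% or more, while COL9A2, COL9A3, COL12A1 and COL16A1 had no island. Collagen IX is built from COL9A1, COL9A2 and COL9A3 together and coats the fibrils of cartilage. Of its 3 genes, COL9A1 was covered in every library and the other 2 in none.

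COL9A1 (chr6:70215061-70303084, minus strand) had 97.4%, 98.1%, 97.7% and 99.1% in control, 97.0%, 92.3%, 96.8% and 97.9% in EPZ, 97.9%, 96.8%, 100% and 97.0% in P38i, and 95.5%, 90.8%, 97.4% and 98.1% in combo. Its neighbour COL19A1 (chr6:69866556-70212468, plus strand), a chain of basement membrane zones in muscle and brain, had 93.0%, 94.5%, 89.6% and 85.1% in control, 86.0%, 86.6%, 87.2% and 92.9% in EPZ, 90.5%, 91.6%, 91.8% and 85.8% in P38i, and 83.0%, 86.3%, 90.6% and 88.0% in combo. The ends of these genes lie 2.59 kb apart, and this gap was covered throughout in all 16 libraries. The island over the gap counts in the values of both genes, which are therefore not independent. The pair was not covered without breaks, with 5 to 23 islands per library on COL19A1 and 1 to 6 on COL9A1. The widest island on the pair was 217 kb, in a control library, and in 1 library a single island spanned all of COL9A1. COL9A1 lay above the upper limit for testing, a mean of 95%, and COL14A1, at 92.2%, just inside it.

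COL14A1, on chromosome 8, which encodes a FACIT chain of dense connective tissue, had 94.1%, 95.4%, 92.1% and 88.7% in control, 91.2%, 87.5%, 92.9% and 94.7% in EPZ, 94.7%, 91.9%, 95.5% and 90.6% in P38i, and 88.8%, 91.3%, 93.5% and 92.2% in combo. All 16 libraries lay between 87.5% and 95.5%, with overlap of all groups. COL22A1, also on chromosome 8, a chain found where muscle meets tendon, had 74.4%, 51.2%, 51.2% and 48.2% in control, 61.3%, 62.7%, 75% and 67.5% in EPZ, 58.2%, 63.5%, 68.4% and 60.9% in P38i, and 66.4%, 55.3%, 78.2% and 82.5% in combo. Apart from control replicate 1, every control value of COL22A1 was below all values of the other groups. This library was set apart after the values were seen, and the share of all genes with such a pattern was not counted. COL21A1 and COL20A1 averaged 38.8% and 22.1%, and ranged from 24.9% to 52.9% and from 14.0% to 29.0%.

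Among the 17 other collagens, 10 had no island, COL15A1 averaged 0.596%, and 6 reached 5%. The beaded filament genes of collagen VI divided by locus. COL6A1, COL6A2 and COL6A3, which make the common collagen VI filament around cells, had no island, whereas COL6A5 and COL6A6, alternative chains that lie next to each other on chromosome 3, averaged 67.0% and 54.6%. The 31.9 kb between COL6A5 and COL6A6 was covered over 74.0% on average, from 52.1% to 90.6%.

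COL6A5 (chr3:130345672-130484846) had 88.8%, 81.3%, 86.0% and 51.5% in control, 43.1%, 43.3%, 66.9% and 65.3% in EPZ, 76.7%, 72.6%, 80.9% and 55.0% in P38i, and 78.4%, 49.6%, 74.1% and 58.4% in combo. EPZ and control overlapped through control replicate 4, the other 3 control libraries being above every EPZ library. COL6A6 ranged from 39.0% to 68.1%.

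The membrane-spanning collagens were also divided: COL13A1 and COL17A1, the latter a hemidesmosome protein of epithelial cells, had no island, while COL25A1 and COL23A1 were covered. Beside COL13A1, 44.7% of the 50 kb on each side was covered. COL25A1 (chr4:108808725-109302658, minus strand), a neuronal collagen also known from amyloid plaques and the longest of the family at 494 kb, had 81.2%, 80.5%, 78.5% and 52.1% in control and 82.8%, 70.9%, 83.2% and 63.8% in P38i. It had 34.7%, 48.9%, 51.2% and 67.2% in EPZ and 46.6%, 54.0%, 63.4% and 54.9% in combo. All combo libraries were below all P38i libraries, and EPZ and control overlapped through control replicate 4 and EPZ replicate 4. COL23A1 (chr5:178237618-178590393, minus strand) had 42.1%, 24.3%, 19.6% and 23% in control, 40.5%, 36.8%, 44.8% and 39.2% in EPZ, 41.9%, 46.7%, 52.3% and 29.5% in P38i, and 44.6%, 34.8%, 50.9% and 53.8% in combo. As in COL22A1, control replicate 1 was high and the other 3 were below every treated library, a pattern not counted over all genes. In the model reported, neither gene passed the threshold in any comparison.

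The anchoring fibril gene COL7A1, the short-chain genes COL8A1, COL8A2 and COL10A1, and COL18A1, the source of endostatin, had no island in any library. COL15A1, a multiplexin of basement membrane zones, had islands in 5 libraries: 2.42%, 1.66%, 1.06% and 2.43% of the gene in P38i and 1.97% in EPZ replicate 1. The control and combo libraries had none there, and its mean was below the range tested. The P38i values came from 1 or 2 islands per library. The share of genes below that range with such a pattern was not counted. COL28A1 and COL26A1, outside the main classes, averaged 26.4% and 11.4%. COL10A1 and COL18A1 each overlap another gene, NT5DC1 and SLC19A1, and the absence of islands there holds for the whole span.

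The EZH2 inhibitor was tested on the 17 collagen genes with a mean of 5% to 95%, in a limma model fitted over the 4105 genes in that range, with Benjamini-Hochberg adjustment over all of them. COL4A4, at 5.03%, was the lowest collagen inside that range and COL4A3, at 0.840%, the highest below it. The main effect compares the 8 libraries with the inhibitor (EPZ and combo) with the 8 without it (control and P38i). In this contrast 3 of 17 collagen genes fell, COL24A1, COL25A1 and COL11A1, and none rose. Over all genes 16.5% passed, 15.6% lower (642 genes) and 36 genes higher, so a share of 3 in 17 is close to the background. The median difference was -4.52 percentage points over the 17 collagen genes and -4.84 over all genes tested, and 15 of 17 differences were negative against 78.1% of all.

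COL24A1 fell by 13.3 percentage points (SE 2.71, limma adjusted p = 0.00614), from 37.0% ± 3.94 (SD, n = 8) without the inhibitor to 23.7% ± 4.33 with it. It was the only collagen gene of the 17 whose 8 libraries with the inhibitor did not overlap the 8 without, which held for 1.58% of all genes tested (1.56% with the inhibitor lower). COL25A1 fell by 21.5 percentage points (SE 5.51, limma adjusted p = 0.0178), from 74.2% ± 11.1 to 52.6% ± 10.1. COL11A1 fell by 13.1 percentage points (SE 4.16, limma adjusted p = 0.0447), from 46.6% ± 7.09 to 33.5% ± 8.36. COL24A1 and COL25A1 still passed with the total covered length of each library in the model, with falls of 10.6 (limma adjusted p = 0.0145) and 11.9 percentage points (limma adjusted p = 0.0349). COL11A1 did not, at -9.69 percentage points (limma adjusted p = 0.177), nor with lists of equal length (limma adjusted p = 0.186) or with the narrowest library of each group left out (limma adjusted p = 0.159). With the replicate block, given in the last section, COL11A1 did not pass either. It also lost its call in 12 of the 16 fits without 1 library: each fit without control replicate 1, 2 or 3, EPZ replicate 1, 2 or 3, P38i replicate 1, 2 or 3, or combo replicate 1, 3 or 4 (limma adjusted p of 0.0523 to 0.0945).

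**Figure D3:**
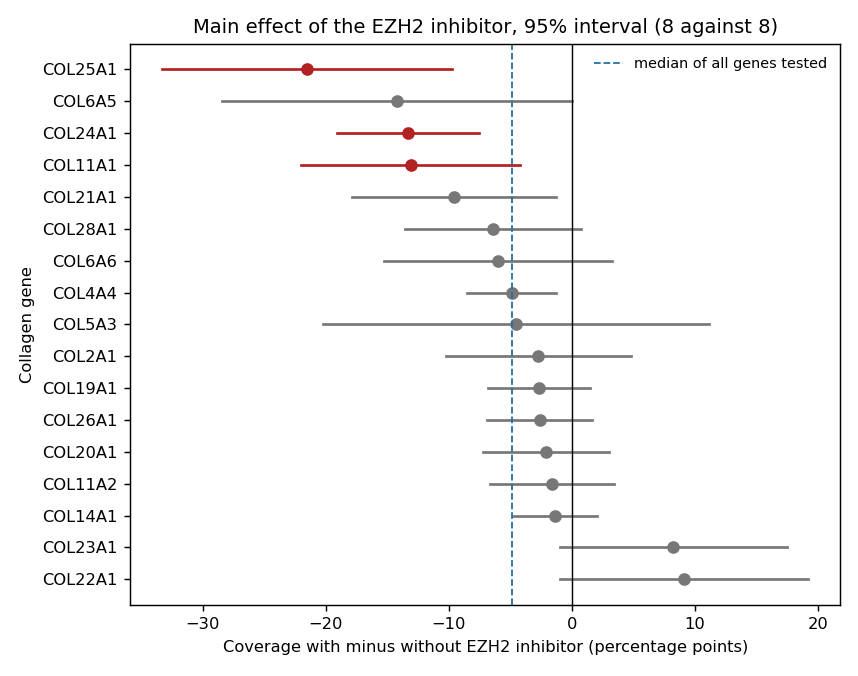
Difference in coverage between the 8 libraries with and the 8 without the EZH2 inhibitor for the 17 collagen genes tested, in percentage points, with its 95% interval from limma. Red marks COL25A1, COL24A1 and COL11A1, the 3 genes past an adjusted p of 0.05, and the dashed line marks the median of all genes tested, -4.84.

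The other 14 genes did not pass. COL4A4 differed by -4.90 percentage points (limma adjusted p = 0.0621), COL21A1 by -9.61 (limma adjusted p = 0.104) and COL6A5 by -14.2 (limma adjusted p = 0.156). COL4A4 reached the lower limit of 5% through its libraries without the inhibitor, at 2.87% to 12.7%, against 0% to 7.32% with it. Its difference is therefore not independent of that limit. COL22A1 and COL23A1 were the 2 genes with positive differences, 9.11 (95% interval -0.991 to 19.2) and 8.25 (-0.958 to 17.5). The highly covered COL14A1 and COL19A1 differed by -1.37 (-4.77 to 2.04) and -2.66 (-6.79 to 1.47).

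In EPZ against control alone, 1 of 17 collagen genes passed, against 3.17% of all genes tested (3.05% lower in EPZ). COL24A1 fell by 15.9 percentage points (SE 3.83, limma adjusted p = 0.0398), from 38.2% ± 4.76 (SD, n = 4) to 22.3% ± 5.22. This call was lost with lists of equal length (limma adjusted p = 0.0705), in a fit of the 2 groups alone (limma adjusted p = 0.154), with the narrowest library of each group left out (limma adjusted p = 0.0857), and without control replicate 1, 2 or 3, EPZ replicate 1, 2 or 3, P38i replicate 2 or combo replicate 2, 3 or 4 (limma adjusted p of 0.0501 to 0.131). The alternatives with a replicate block and at the gene start, given in the last section, lost this call as well. Without control replicate 4, the control library with the narrowest islands, 3 collagen genes passed, COL24A1, COL25A1 and COL6A5. Among the 17, the EPZ and control libraries did not overlap for COL24A1 and COL11A1, both lower in EPZ, against 8.4% of all genes tested (7.84% lower). COL11A1 (-16.3, limma adjusted p = 0.135) and COL25A1 (-22.6, limma adjusted p = 0.12) did not pass in this comparison. The median difference was -6.83 percentage points over the collagen genes and -4.42 over all genes.

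**Figure D4:**
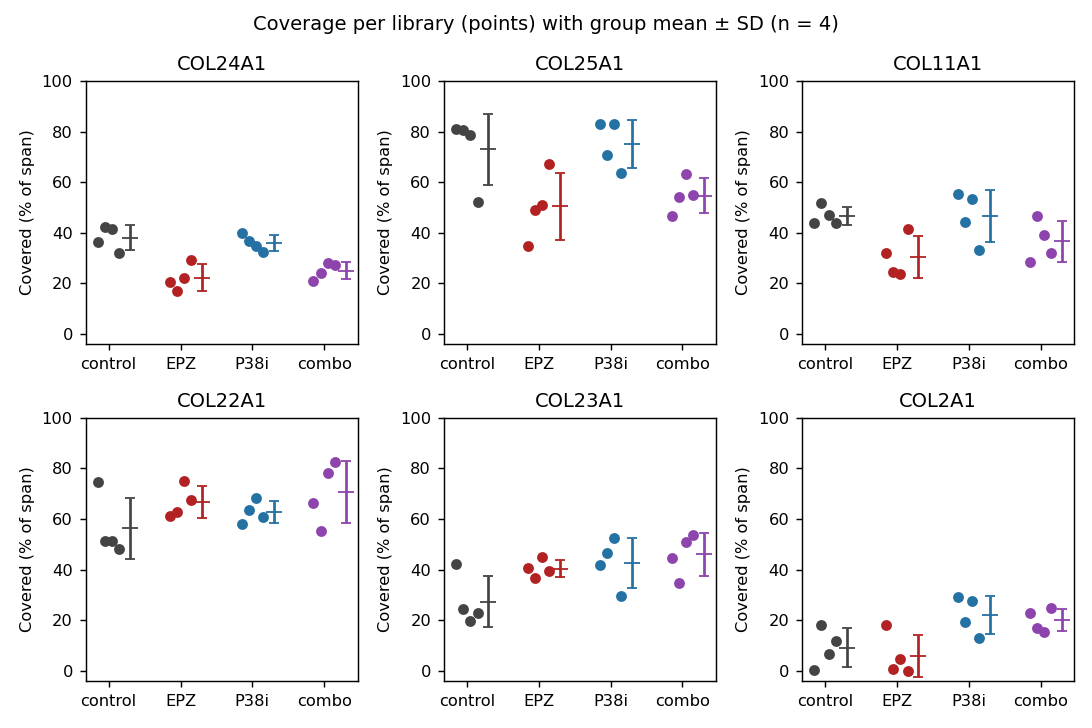
Coverage of 6 collagen genes in percent, 1 point per library, with the mean and SD of each group of 4. COL24A1 is lower in all 8 libraries with the EZH2 inhibitor (16.9% to 29.4%) than in the 8 without (32.2% to 42.3%). For COL22A1 and COL23A1, 3 of 4 control libraries are below every treated library, control replicate 1 lies among the treated ones, and neither gene passed in limma.

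Where along a gene the coverage differed was read from 5 sections of equal length, numbered from the gene start, and from tiles of 10 kb. Islands on COL24A1 and COL11A1 lay in the part next to the start and ended within the gene, whereas those on COL25A1 ran over its whole length. In the 50 kb on either side, 80.7% was covered on average beside COL11A1 and 25.4% beside COL24A1. The empty end of COL11A1 thus lay between covered parts. In COL24A1 sections 1 to 3 were covered over 74.4%, 57.2% and 52.3% without the EZH2 inhibitor and over 47.8%, 33.8% and 36.8% with it. Section 4 held 0.585% without it, all from control replicate 3 at 4.68%, and none with it. No library had an island in section 5. In section 2 the libraries did not overlap, with 22.2% to 40.8% against 50.2% to 72.2%.

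In COL11A1 sections 1 and 2 were still covered over 75.4% and 68.2% with the inhibitor, against 92.3% and 80.6% without. Section 3 had 10.4% against 35.9% and section 4 had 12.9% against 24.7%, and section 5 had none. In COL25A1 the mean was lower in all 5 sections, from 63.3% against 82.5% in section 1 to 54.0% against 78.3% in section 5. COL25A1 carried 31 to 59 islands in control and 43 to 51 in EPZ, and the median of the widest island was 32.4 kb in control and 14.1 kb in EPZ. These values by position are descriptions with no test of their own.

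**Figure D5:**
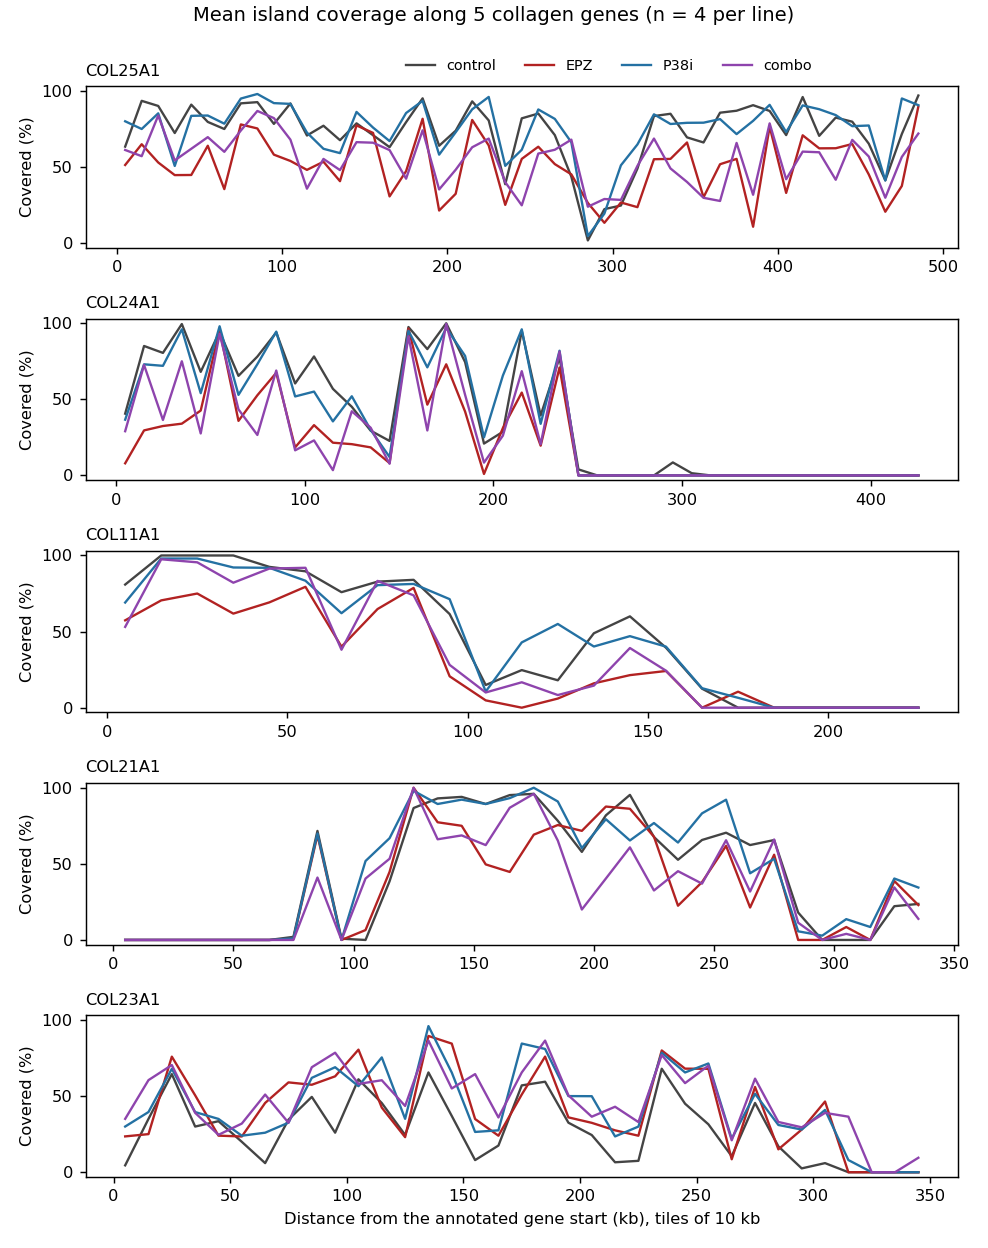
Mean coverage of 10 kb tiles along 5 collagen genes, in percent, against the distance from the annotated gene start in kb, with 1 line per treatment group (n = 4 libraries). In COL24A1 and COL11A1 the lines reach 0 before the gene ends, in COL25A1 the EPZ and combo lines run below control and P38i over most tiles, and in COL23A1 the control line is mostly the lowest.

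Starts and gene bodies were alike in some genes and differed in others. In the window of 2.5 kb on each side of the start, COL25A1 was covered over 59.1% on average, and the main effect there was -0.505 percentage points (limma adjusted p = 0.986). COL11A1 had 56.3% there and an effect of -4.89 (limma adjusted p = 0.847), and COL24A1 had 37.4% and an effect of -22.1 (limma adjusted p = 0.291), in the same direction as over the gene but not past the threshold. COL9A1 and COL19A1 had 98.3% and 84.5% at the start, near their means over the gene. COL21A1, COL23A1, COL26A1 and COL28A1 had no island at the start in any library, although their means over the gene were 38.8%, 39.1%, 11.4% and 26.4%. In COL21A1 section 1 was free of islands in every library, and COL28A1 had 62.8% and 74.5% in sections 4 and 5 without the EZH2 inhibitor, against 4.44% or less in sections 1 to 3.

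The covered parts were stable between libraries in some genes and shifting in others. The 18 genes held 392 tiles, of which 83 (21.2%) were covered over 50% or more in all 16 libraries and 60 had no island in any. In COL14A1 22 of 25 tiles, in COL9A1 8 of 9 and in COL19A1 28 of 35 were covered in all 16 libraries. In COL25A1, a gene with a mean of 63.4%, this held for 1 of 49 tiles, and in COL22A1, with a mean of 64.1%, for 13 of 33. COL24A1 had 3 of 43 such tiles and 22 tiles covered in none.

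The p38 inhibitor alone moved no collagen gene past the threshold. In P38i against control 0 of 17 passed in limma (0.292% of all genes tested, all 12 of them higher), with 3 at an unadjusted p under 0.05: COL23A1, COL26A1 and COL2A1. COL23A1 differed by 15.3 percentage points (limma adjusted p = 0.423), COL2A1 by 12.9 (limma adjusted p = 0.407) and COL26A1 by 7.29 (limma adjusted p = 0.413). COL26A1, a secreted collagen of testis and ovary, was the 1 collagen gene of the 17 tested whose P38i libraries, at 11.3% to 20.6%, did not overlap control, at 7.64% to 10.9%, against 3.41% of all genes tested (3.24% higher). For the p38 inhibitor over 8 libraries against 8, 0 of 17 passed in limma against 0.122% of all genes, and COL2A1 (13.6, limma adjusted p = 0.144), COL26A1 (6.57, limma adjusted p = 0.203) and COL23A1 (10.5, limma adjusted p = 0.326) were at an unadjusted p under 0.05. None of the 17 separated the 8 libraries with the p38 inhibitor from the 8 without, against 0.0487% of all genes.

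The combination was set against each other group, and the comparisons with control share the same 4 control libraries. In combo against control 0 of 17 collagen genes passed in limma (1.68% of all genes tested), and 5 were at an unadjusted p under 0.05. Of these COL24A1 (-13.0, limma adjusted p = 0.0904) and COL25A1 (-18.3, limma adjusted p = 0.225) were lower, and COL23A1 (18.8, limma adjusted p = 0.119), COL22A1 (14.4, limma adjusted p = 0.269) and COL2A1 (10.9, limma adjusted p = 0.263) were higher. With the covered length of each library in the model 3 passed, COL24A1 and COL25A1 lower and COL23A1 higher; with lists of equal length COL25A1 passed, and without control replicate 4 COL24A1 did. Among the 17, the libraries of the 2 groups did not overlap for COL24A1, lower in combo, against 8.06% of all genes (6.46% lower).

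In combo against P38i 0 of 17 passed in limma (1.92% of all genes), with COL24A1 (-10.8, limma adjusted p = 0.145), COL25A1 (-20.5, limma adjusted p = 0.163) and COL21A1 (-12.2, limma adjusted p = 0.232) at an unadjusted p under 0.05. Of the 17 tested, COL24A1 and COL25A1 were lower in combo without overlap, against 10.8% of all genes (10% lower). In combo against EPZ 0 of 17 passed, as did 0% of all genes in limma, while 2 collagen genes and 224 genes in all were at an unadjusted p under 0.05. These were COL2A1 (14.2, limma adjusted p = 0.701) and COL5A3 (23.5, limma adjusted p = 0.883), and no collagen gene of the 17 was without overlap (2.97% of all genes). The test of whether the EZH2 inhibitor acted differently with the p38 inhibitor present called 0 of 17 collagen genes in limma (0.0487% of all genes), with 0 at an unadjusted p under 0.05. For COL24A1 that interaction was 5.12 percentage points (95% interval -6.44 to 16.7), for COL11A1 6.43 (-11.4 to 24.2) and for COL25A1 2.12 (-21.4 to 25.7).

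Genes that build, cut and bind collagen were read beside the 68.0% of all genes that had no island. Of 20 enzymes and chaperones that hydroxylate, glycosylate, fold or export procollagen, 19 had no island and MIA3, an export receptor, averaged 0.254%. Of 13 genes for procollagen processing and crosslinking, 8 had no island and 4 reached 5%: the propeptide-cleaving proteases ADAMTS3, TLL2, ADAMTS2 and TLL1, at 28.6%, 18.2%, 14.7% and 12.6%. ADAMTS3 was the 1 gene of these 4, all tested, past the threshold in any comparison, and no tested gene of the other lists passed. Over all genes 3.17% passed in EPZ against control and 16.5% in the main effect. It had 37.1%, 47.1%, 39.1% and 29.9% in control, 9.14%, 13.2%, 15.0% and 21.6% in EPZ, 48.4%, 34.5%, 41.2% and 21.9% in P38i, and 19.2%, 31.6%, 27.3% and 21.9% in combo. It fell by 23.5 percentage points in EPZ against control (limma adjusted p = 0.0375) and by 17.5 between all libraries with and without the EZH2 inhibitor (limma adjusted p = 0.00969).

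Of 10 collagen receptors, 6 had no island, and LAIR1, an inhibitory receptor of immune cells, and GP6, the platelet collagen receptor, averaged 63.6% and 9.51%. Of 12 small leucine-rich proteoglycans 8 had no island, and FMOD, which regulates fibril assembly, averaged 54.6% while KERA, of the cornea, averaged 4.61%. Of 15 other basement membrane genes (laminins, nidogens and perlecan) 9 had no island, LAMA1, a laminin chain of the embryo, averaged 85.2% and LAMC3 4.31%. Of 7 collagen-degrading proteases, which were metalloproteinases and the cysteine protease CTSK, 3 had no island, CTSK among them, and 4 reached 5%. These were MMP8 at 99.5% and MMP1 at 99.2%, followed by MMP13 at 44.3% and MMP9 at 34.8%. MMP1, MMP8 and MMP13 stand in the same gene cluster.

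Marker genes were read for the labelled cell type. All 8 markers of a mesenchymal-like breast cancer line, VIM and CD44 among them, had no island. Of 8 luminal epithelial markers 5 had none and FOXA1 and ESR1 averaged 56.6% and 10.2%. Of 8 fibroblast markers 5 had none and PDGFRA and POSTN averaged 42.0% and 9.38%, and of 6 chondrocyte markers 4 had none, with ACAN at 71.4% and MATN1 at 1.23%. Islands show the absence or presence of called mark on a gene and not its expression, so these values do not identify a cell type.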

How the data were processed

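H3K27me3 ChIPmentation was deposited as 1 island list per library (16 lists, 4 per group). Per the deposited files' contents, an island has only its bounds on hg38, without a count, signal or other score. Per the submitters' processing notes, the tools were SICER (an island caller), Bowtie2 2.3.4.1 (an aligner), bedtools 2.28.0, SAMtools 1.2, Picard, cutadapt, Trim Galore and FastQC. Neither step order nor caller settings is given in the sources used here. Island bounds lay on windows of 200 bp, with gaps of 800 bp or more.

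The percent of each RefSeq gene (GRCh38.p14) with 2.5 kb on each side under islands was computed in Python 3.11.15 and checked with bedtools 2.31.1 (largest difference 0). Genes with a mean of 5% to 95% were tested with limma 3.58.1 (trend, robust) in R 4.3.3 on untransformed percentages of all 16 libraries, without a block, threshold 0.05; the procedure was tested on simulated data. A main effect averages the inhibitor's difference with and without the other inhibitor. Strand came from the promoter table, which matched 32 of 44 collagen genes; for the others gene sections were counted from the lower coordinate. The members and lists were chosen with earlier results of these data known. Named with values in every library were collagen genes past the threshold in any comparison, the 6 with the highest mean and the 6 with the widest range of group means; in related lists, those past the threshold and the 2 highest (ADAMTS2, TLL1, MMP9 and MMP13 were named after their values were seen). Alternatives changed the flank, filter, scale, list length, window, covariate, block and libraries left out.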

Additional observations from a re-analysis of the deposited data

Results flagged for a closer look

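In 11 named genes and 4 groups of 4 libraries, 44 sets of values were examined for a single library far from the other 3, by the gap to its nearest neighbour as a share of the group's range against Dixon's 95% critical value. Chance marks about 1 set in 20, and 2 were marked. COL22A1 stood at 74.4% in control replicate 1, against 48.2% to 51.2% in the other control libraries. COL25A1 stood at 52.1% in control replicate 4, against 78.5% to 81.2% in the other control libraries. Control replicate 4 had the narrowest islands of its group, a median of 4.0 kb, and control replicate 1 had the widest of all libraries, 7.4 kb. The part of island width in these 2 values was not tested.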

How the results depend on the processing

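The 4 gene differences recomputed (COL24A1 in EPZ against control, and COL24A1, COL25A1 and COL11A1 with against without the EZH2 inhibitor) kept their sign in every alternative run. EPZ against control called 1 collagen gene and called 0 with the replicate block, with lists of equal length, in the window at the gene start, in a fit of the 2 groups, with the narrowest library of each group left out and with the replicate block with covered length, and 0 to 3 without 1 library. Combo against control called 0, and called 3 with covered length as a covariate, 1 with lists of equal length, 1 with the replicate block with covered length, and 0 to 1 without 1 library. The main effect of the EZH2 inhibitor called 3, and called 0 at the gene start, 1 with the replicate block with covered length (COL24A1), 2 with the replicate block alone (COL24A1 and COL25A1) and 2 to 4 without 1 library. The other 5 comparisons called 0 collagen genes in every alternative. The cause of these changes was not tested, except that the window at the gene start tested fewer genes (2579, of which 8 collagens). Same-numbered libraries did not deviate together (r of -0.151 to 0.178, against -0.204 to 0.163 for different numbers). The replicate block was left out of the model reported because no label says that the numbers mark a shared culture. With this block the limma adjusted p was 0.0764 for COL24A1 in EPZ against control and 0.0769 for COL11A1 in the main effect. The main effect on COL24A1 passed in 26 of 27 alternatives, that on COL25A1 in 25 and that on COL11A1 in 7; COL24A1 in EPZ against control passed in 12 of 28. The number of collagen genes covered was 7 at a mean of 50%, 13 at 25% and 3 at 75%. Leaving out the narrowest libraries together and the block with covered length were chosen after seeing the data. Depth is unknown, so a missing island may be a weak signal that was not called.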
